A study of Mus musculus with 6 samples.

Results

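The mitochondrial genome of the mouse carries 37 genes, and all 37 were measured in RNA from embryonic dorsal root ganglia. They were chosen by position, as every gene on chromosome MT, and make up 37 of 37086 genes measured. They comprise 13 genes for proteins of the respiratory chain and ATP synthase, 2 genes for ribosomal RNAs and 22 genes for transfer RNAs. Dorsal root ganglia hold the cell bodies of the sensory neurons that serve trunk and limbs, with their glia. They came from wild type C57BL/6J embryos at 14.5 dpc (Theiler stage TS22), of unknown sex. Ganglia of 18 embryos were pooled, and the 6 libraries were all made from dilutions of that RNA, kept at 100 ng per µl. The high-volume group took RNA in 9 µl with the SMARTer Ultra Low Input HV kit, and the low-volume group took it in 1 µl with the SMARTer Ultra Low kit. Each group held 1 library from 3 ng, 1 from 10 ng and 1 from 30 ng of total RNA. Volume and kit cannot be told apart, and because the 6 libraries repeat 1 RNA pool, every SD and p-value below measures technical spread and not spread between embryos.

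Tags are the submitters' word for counted reads. The transcripts that stand for the genes, 1 for each gene, held 14160397 to 31524210 tags per library, fewest at 3 ng, and "all tags" below means this sum. Neuronal Tubb3 (mean RPKM 2961) and glial Fabp7 (869) were present, while Olig2 and Mnx1 of the spinal cord had at most 1 tag in any library and Pax2 and Lhx5 at most 37. Embryonic globin Hbb-y stood at 3034, so the pool also held erythroid RNA. RPKM is tags per kilobase of the gene, scaled to the total tags of the library, so it puts genes of different length on a common scale. In RNA from a whole tissue, more cells of a type and more RNA per cell cannot be told apart.

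Mitochondrial DNA is transcribed from both strands into long precursors that span many genes. The tRNA genes lie between most of the other genes, and cutting the precursor at both ends of each tRNA releases the mRNAs and rRNAs, a scheme known as tRNA punctuation. Most of the released mRNAs then gain a short poly(A) tail, which in several of them also completes the stop codon. The SMARTer kits prime on poly(A), so what they count depends on such tails or on runs of A within a transcript. One strand, here called plus as in the annotation, carries 28 of the genes. The minus strand carries mt-Nd6 and 8 tRNA genes.

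The genes lie so close that 9 pairs of neighbours share bases. The tags were counted without regard to strand, since every exon interval that occurs on both strands and held tags had the same count on each. Tags in shared bases, and tags of RNA that runs opposite to a gene, therefore cannot be assigned to 1 gene. The junctions printed here show this, each 5′ to 3′ on the plus strand of GRCm38 from GENCODE M21 transcripts, with the bases that belong to both genes in capitals. The first holds the end of mt-Atp8 and the start of mt-Atp6, which share 43 bases in different reading frames (chrM:7915-7981). The second is the single base shared by mt-Atp6 and mt-Co3 (chrM:8595-8619). In the third, mt-Co1 meets mt-Ts1 of the other strand and shares 3 bases with it (chrM:6858-6884). In the last, the ends of mt-Nd5 and mt-Nd6, on opposite strands, share 14 bases (chrM:13540-13577).
mt-Atp8 and mt-Atp6: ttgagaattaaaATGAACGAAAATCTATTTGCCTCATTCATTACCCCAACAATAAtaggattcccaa
mt-Atp6 and mt-Co3: tgataatacataAtgacccaccaaa
mt-Co1 and mt-Ts1: gtaaaagtaaaaTAAgaaaggaaggaa
mt-Nd5 and mt-Nd6: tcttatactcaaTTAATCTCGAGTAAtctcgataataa

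Where a stop codon is incomplete in the gene, the tail has to supply the missing letters. As annotated, 10 of the 13 protein genes ended in a complete stop codon and 3 ended in a lone T: mt-Co3, mt-Cytb and mt-Nd4. mt-Nd1 and mt-Nd2 count among the 10, but their last 2 bases also belong to mt-Ti and mt-Tw, on the same strand. Where the mature mRNAs end was not tested. The last 20 bases of mt-Co3, mt-Cytb and mt-Nd4 are printed below with the lone T in capitals, beside those of mt-Atp6 with its annotated stop codon in capitals. They lie on the plus strand at chrM:9371-9390, chrM:15269-15288, chrM:11525-11544 and chrM:8588-8607. The last A of the mt-Atp6 stop codon is also the first base of mt-Co3.
mt-Co3: catttattgatgaggatctT
mt-Cytb: aatactaaaattatatccaT
mt-Nd4: aattacaggcctgacaataT
mt-Atp6: atctacatgataatacaTAA
Genes annotated with a lone T stood on both sides of mt-Atp6 in level: mean RPKM was 26664 for mt-Co3, 21058 for mt-Atp6, 6459 for mt-Cytb and 2270 for mt-Nd4.

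The highest RPKM values of the mitochondrial genome belonged to genes for subunits of complex IV and of ATP synthase. Since the kits prime on poly(A), these ranks need not follow the amounts of the RNAs. In mean RPKM over 6 libraries, mt-Co3 and mt-Atp6 ranked in places 2 and 3 among all 37086 genes, and mt-Atp8 in place 4. The next ranks of the mitochondrial genome were mt-Nd1 in place 6, mt-Cytb in 7, mt-Co2 in 8, mt-Rnr2 in 10 and mt-Co1 in 11. At the other end, mt-Nd4l took place 16866. Of 11978724 mitochondrial tags in all libraries, mt-Co3 held 26.0%, the top 2 genes 44.3%, the top 5 genes 74.0% and the top 10 genes 95.8%.

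**Figure D1:**
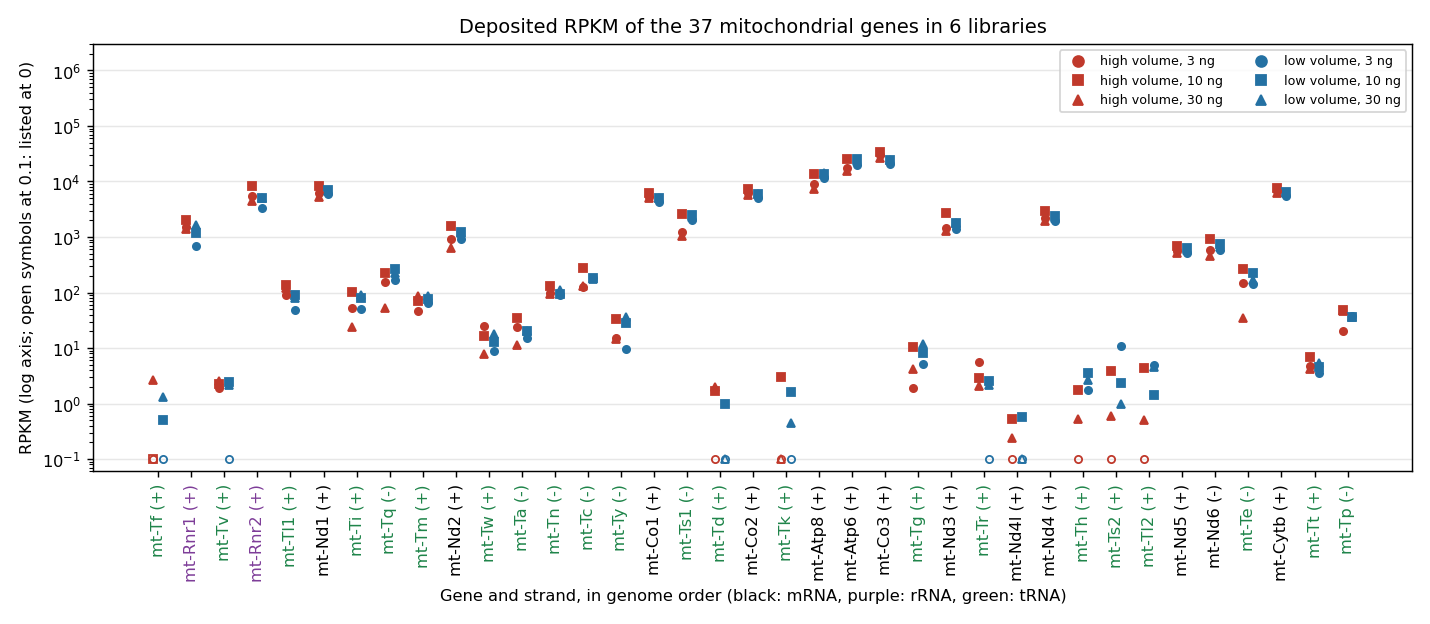
Deposited RPKM (log axis) of the 37 mitochondrial genes, in genome order along the horizontal axis with the strand in brackets. Each point is 1 library, red for high and blue for low volume, and open symbols mark libraries listed at 0. The tallest stretch runs from mt-Atp8 to mt-Co3, and mt-Nd4l falls among the lowest tRNA genes.

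Complex IV (cytochrome c oxidase) passes electrons to oxygen, and its 3 largest subunits are encoded here. The third subunit, mt-Co3, had RPKM values of 30336, 34343 and 26014 in the high-volume libraries from 3, 10 and 30 ng. The low-volume libraries held 20685, 24054 and 24550. Every high-volume library thus lay above every low-volume one, and the mean was 26664 ± 4897 (SD, n = 6). For mt-Co2, whose protein takes electrons from cytochrome c, the high-volume values were 6167, 7278 and 5682 and the low-volume values 5082, 5943 and 5940, which overlap on this scale. The catalytic subunit mt-Co1 held 5258, 6078 and 5077 in high volume and 4247, 4994 and 5002 in low volume. The highest of the 6 libraries was 1.43-fold the lowest for mt-Co1 and for mt-Co2, and 1.66-fold for mt-Co3.

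ATP synthase (complex V) has 2 mitochondrial subunits, both part of its membrane portion. The proton channel subunit mt-Atp6 had RPKM values of 17249, 24947 and 15147 in high volume at 3, 10 and 30 ng and of 20198, 25159 and 23650 in low volume. Its upstream neighbour mt-Atp8, translated from the same mRNA in another frame, held 9096, 13642 and 7318 in high volume and 11349, 13653 and 14223 in low volume. For both genes the high-volume 30 ng library was the lowest of the 6, and the groups overlapped. The means were 21058 ± 4215 and 11547 ± 2825 (SD, n = 6).

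Complex III has a single mitochondrial subunit, cytochrome b. Its gene mt-Cytb held 6740, 7750 and 6087 in high volume and 5504, 6450 and 6223 in low volume, with a mean of 6459 ± 755. From the lowest to the highest library mt-Cytb ranged 1.41-fold and mt-Nd5, of complex I, 1.36-fold, the narrowest ranges of the protein genes.

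Complex I takes electrons from NADH, and 7 of its subunits come from the mitochondrial genome. They spanned the widest range of any complex. The gene nearest the rRNAs, mt-Nd1, had a mean RPKM of 6581 ± 1046 (SD, n = 6). The other members followed with mt-Nd4 at 2270 ± 384, mt-Nd3 at 1729 ± 522, mt-Nd2 at 1073 ± 316, mt-Nd6 at 660 ± 164 and mt-Nd5 at 588 ± 71.1. The exception was mt-Nd4l, at 0.223 ± 0.270.

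In the order of the 15 protein and rRNA genes by mean RPKM, several neighbours did not differ beyond their spread within libraries. On log2(RPKM + 1), the mean difference was smaller than its SD over the 6 libraries for mt-Co3 and mt-Atp6, mt-Nd1 and mt-Cytb, mt-Co2 and mt-Rnr2, mt-Rnr2 and mt-Co1, mt-Nd3 and mt-Rnr1, mt-Rnr1 and mt-Nd2, and mt-Nd6 and mt-Nd5. For the other 7 neighbours the upper gene was higher in 6 of 6 libraries. The step from mt-Nd5 to mt-Nd4l was the widest of these, at 8.93 ± 0.22 (SD, n = 6).

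mt-Nd4l codes for a small membrane subunit of complex I and shares an mRNA with mt-Nd4, its downstream neighbour, with which it overlaps by 7 bases. It held 0, 4 and 2 tags in the high-volume libraries from 3, 10 and 30 ng and 0, 5 and 0 in the low-volume libraries, 11 in all. The same 6 libraries held 471735 tags on mt-Nd4. The whole gene is printed because a nuclear gene repeats nearly all of it (chrM:9877-10173, plus strand), with the bases it shares with mt-Nd4 in capitals.
mt-Nd4l: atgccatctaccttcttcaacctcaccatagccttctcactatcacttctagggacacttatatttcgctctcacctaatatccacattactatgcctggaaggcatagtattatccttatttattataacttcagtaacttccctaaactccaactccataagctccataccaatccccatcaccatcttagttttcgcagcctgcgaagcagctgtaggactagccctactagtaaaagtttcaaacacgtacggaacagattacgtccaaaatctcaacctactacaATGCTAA
The nuclear gene Gm10222 on chromosome 1 matched 294 of the 297 bases of mt-Nd4l with no mismatch, so that a read from within these bases matches both genes equally. Gm10222 itself held 17 tags in all libraries.

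Nuclear copies of mitochondrial sequence bear on several other genes. GENCODE M21 lists 11 genes off the mitochondrial genome that align to one of its genes at 95% identity or more over at least 100 bases. They match 9 mitochondrial genes, and 7 of them lie side by side on chromosome 1, on the minus strand between positions 24611535 and 24616197. Of the 11 copies, 5 were among the genes measured here and 6 were not. Those 6 are the chromosome 1 copies of mt-Nd4, mt-Nd3, mt-Co3, mt-Atp6, mt-Co2 and mt-Co1, at 99.7% to 100% identity. Beside Gm10222, the 5 measured were Gm13341 (835 tags in all libraries), Gm13340 (583), Gm13339 (28) and Gm4076 (20). The largest of these counts, that of Gm13341, stood against 618465 tags on mt-Co2, the gene it copies.

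The extent of the shared sequence was also measured for each gene. Each mitochondrial gene was cut into every possible window of 50 bases, and the windows found unchanged in a nuclear transcript were counted. They were 100% of the windows of mt-Co2, 99.9% of mt-Co3, 99.5% of mt-Atp6, 98.8% of mt-Nd4l and 98.0% of mt-Nd3. The share was 62.2% for mt-Nd4, 51.1% for mt-Co1 and at most 8.19% for every other gene. mt-Co3, first of the 37 in level, and mt-Nd4l, the last, both had a nearly complete copy. These genes are not alike in this respect. Gm10222, the copy of mt-Nd4l, was among the genes measured, and Gm28437, the chromosome 1 copy of mt-Co3, was not. How the authors treated reads with several matches is not given in the sources used here, and its part in these levels was not tested.

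The mitochondrial ribosome contains a large and a small ribosomal RNA, coded by mt-Rnr2 (16S) and mt-Rnr1 (12S) beside the main promoters. mt-Rnr2 had RPKM values of 5415, 8345 and 4421 in high volume at 3, 10 and 30 ng and of 3267, 5066 and 5075 in low volume. mt-Rnr1 held 1496, 2024 and 1381 in high volume and 681, 1196 and 1627 in low volume. In both rRNAs the high-volume 10 ng library was the highest and the low-volume 3 ng library the lowest, with a 2.97-fold range for mt-Rnr1 and a 2.55-fold range for mt-Rnr2. The 2 rRNAs together took 1.05% ± 0.344 (SD, n = 6) of all tags. With priming on poly(A), these values need not follow the amount of either rRNA.

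Transfer RNA genes gave 0.0219% ± 0.00692 (SD, n = 6) of all tags, and the median level of those annotated on the minus strand was the higher, though the ranges overlapped and no test was run. The 8 minus-strand tRNA genes had mean RPKM values from 21.03 for mt-Ta to 1940 for mt-Ts1, with a median of 134. All 8 had at least 10 tags in every library. The 14 plus-strand tRNA genes ran from 0.736 for mt-Tf to 93.9 for mt-Tl1, with a median of 2.90. Of these, 10 had a mean RPKM under 10 and 8 had no tag in at least 1 library. The 4 others were mt-Tl1, mt-Tm (72.2), mt-Ti (66.3) and mt-Tw (14.8). Since the kits prime on poly(A) and strand was not used, these tags need not come from mature tRNA. Their levels are therefore no measure of its amount.

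The highest tRNA genes of each strand and mt-Tg, the highest of the 10 under RPKM 10, are printed 5′ to 3′ on their own strand, with the anticodon in capitals. mt-Ts1 (chrM:6870-6938), mt-Tq (chrM:3772-3842) and mt-Tc (chrM:5192-5257) are the 3 highest of the minus strand. mt-Tl1 (chrM:2676-2750) is the highest of the plus strand and mt-Tg (chrM:9391-9458), also on the plus strand, begins at the base after mt-Co3.
mt-Ts1: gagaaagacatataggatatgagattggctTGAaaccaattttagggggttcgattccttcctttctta
mt-Tq: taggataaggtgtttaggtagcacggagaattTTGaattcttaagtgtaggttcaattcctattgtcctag
mt-Tc: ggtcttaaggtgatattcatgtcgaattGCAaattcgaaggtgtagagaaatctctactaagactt
mt-Tl1: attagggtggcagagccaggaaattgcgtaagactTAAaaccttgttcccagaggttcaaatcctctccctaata
mt-Tg: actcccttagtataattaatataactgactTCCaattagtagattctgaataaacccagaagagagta
These sequences carry no terminal CCA, the 3 letters added to every mature tRNA after transcription.

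mt-Ts1, a serine tRNA gene that lies opposite to the bases just past mt-Co1, was alone among the tRNA genes at the level of the mRNAs. Its RPKM was 1223, 2642 and 1032 in high volume at 3, 10 and 30 ng and 2006, 2473 and 2264 in low volume, from 1306 to 5301 tags per library. The high-volume libraries from 3 and 30 ng were the 2 lowest. RNA that runs on from mt-Co1 would be counted on mt-Ts1, since strand was not used, and both sources cannot be told apart. By contrast mt-Tg, the glycine tRNA gene between mt-Co3 and mt-Nd3, held 2 to 27 tags per library, although both of its neighbours stand on the same strand.

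**Figure D2:**
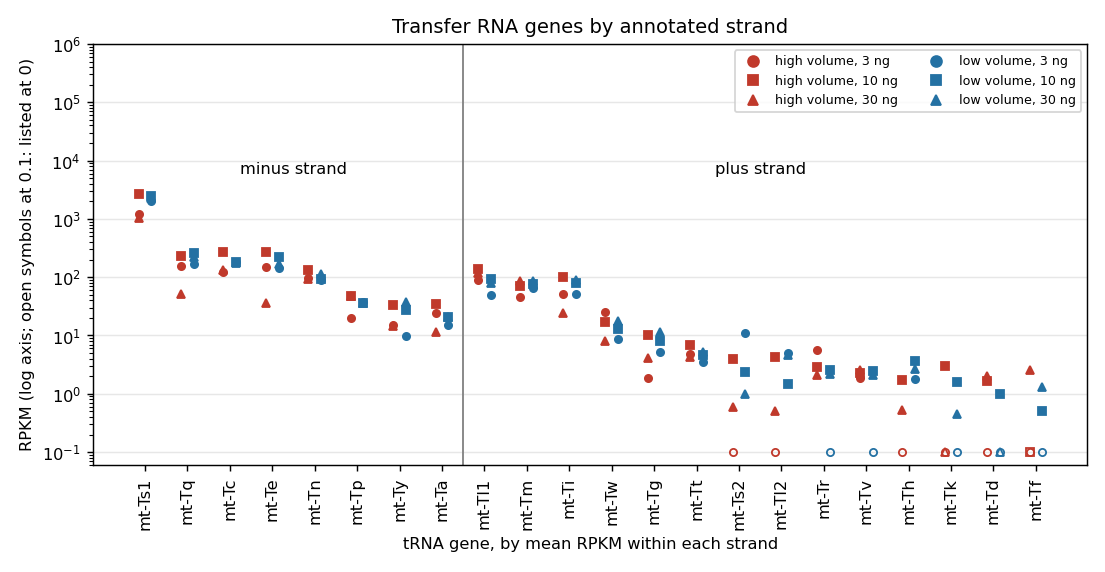
Deposited RPKM (log axis) of the 22 tRNA genes, grouped by annotated strand and ordered by mean RPKM within each strand. Each point is 1 library and open symbols mark libraries listed at 0. All 8 minus-strand genes have tags in every library, while 8 of the 14 plus-strand genes are at 0 in at least 1 library.

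Mitochondrial genes took 8.62% ± 1.44 (SD, n = 6) of all tags. Genes annotated on the plus strand took 8.56% and genes annotated on the minus strand 0.0570%, whichever strand the counted RNA came from. Protein genes accounted for 7.55% ± 1.10. The high-volume libraries from 3, 10 and 30 ng held 8.66%, 11.2% and 7.55%, and the low-volume libraries 6.99%, 8.75% and 8.60%. The 10 ng high-volume library was the highest, and the groups overlapped. The high-volume mean exceeded the low-volume mean by 1.02 percentage points (9.13% ± 1.86 against 8.11% ± 0.975, n = 3 each; two-sided exact permutation p = 0.5, adjusted 0.6 over 6 such shares, smallest possible 0.1). Within each input the difference was 1.67 points at 3 ng, 2.44 at 10 ng and -1.04 at 30 ng. Without the high-volume 10 ng library it was -0.00193 points. Without the high-volume 30 ng library it was 1.81, and without the low-volume 3 ng library 0.463.

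**Figure D3:**
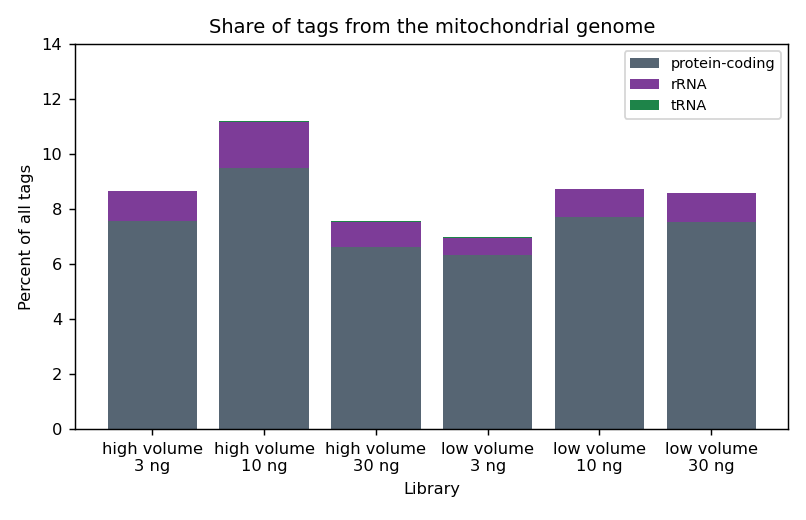
Percent of all tags that fell on mitochondrial genes in each of the 6 libraries, stacked by class. Protein-coding genes make up most of each bar and the tRNA share (0.0219% on average) is too thin to see. The high-volume library from 10 ng is the tallest, at 11.2%.

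Levels of 10 pairs of genes were compared within libraries on log2(RPKM + 1). The two-sided exact sign-flip permutation test over 6 libraries gave p = 0.0312, the smallest it can give, and an adjusted p of 0.0446 for 7 of the 10 pairs. Leaving out any library ended these calls, since 5 libraries cannot give a p below 0.0625. The larger rRNA exceeded the smaller, with a difference of 1.93 ± 0.24 (SD, n = 6) for mt-Rnr2 minus mt-Rnr1. mt-Nd1 exceeded mt-Nd2, the other complex I gene near the rRNAs, by 2.66 ± 0.22. Among complex IV genes mt-Co3 was above mt-Co2 (mt-Co2 minus mt-Co3, -2.14 ± 0.12), and mt-Co1 was slightly below mt-Co2 (-0.24 ± 0.037).

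On the shared mRNA of ATP synthase, mt-Atp8 was below mt-Atp6 by a difference of -0.88 ± 0.10 (SD, n = 6). On that of complex I, mt-Nd4l minus mt-Nd4 was -10.87 ± 0.24, the widest of the 10. Since mt-Nd4l had no tag in 3 libraries, the pseudocount sets the size of that value: it was -13.26 with a pseudocount of 0.1 and -13.89 on tags per kilobase. mt-Nd5 minus mt-Cytb was -3.46 ± 0.092. The other 3 pairs did not pass: mt-Nd1 minus mt-Rnr2 (0.36 ± 0.31, exact adjusted p = 0.0781), mt-Co3 minus mt-Atp6 (0.35 ± 0.39, exact adjusted p = 0.139) and mt-Nd6 minus mt-Nd5 (0.14 ± 0.20, exact adjusted p = 0.188).

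The ratio of the neighbours mt-Co3 and mt-Atp6 was higher in each high-volume library than in any low-volume one, but the difference did not pass the test. mt-Co3 minus mt-Atp6 was 0.81, 0.46 and 0.78 in high volume at 3, 10 and 30 ng and 0.034, -0.065 and 0.054 in low volume. The groups did not overlap, with means of 0.69 ± 0.19 and 0.0078 ± 0.064 (n = 3 each). Of the 10 pairs, 4 had groups that did not overlap in this way: this one, mt-Co2 minus mt-Co3, mt-Nd1 minus mt-Rnr2 and mt-Nd5 minus mt-Cytb. Each reached the smallest two-sided exact permutation p that 3 against 3 libraries allow, 0.1, and an adjusted p of 0.25, so none passed. mt-Co3 is part of both mt-Co3 minus mt-Atp6 and mt-Co2 minus mt-Co3, so these are not separate results. The share of such pairs among all genes was not computed.

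**Figure D4:**
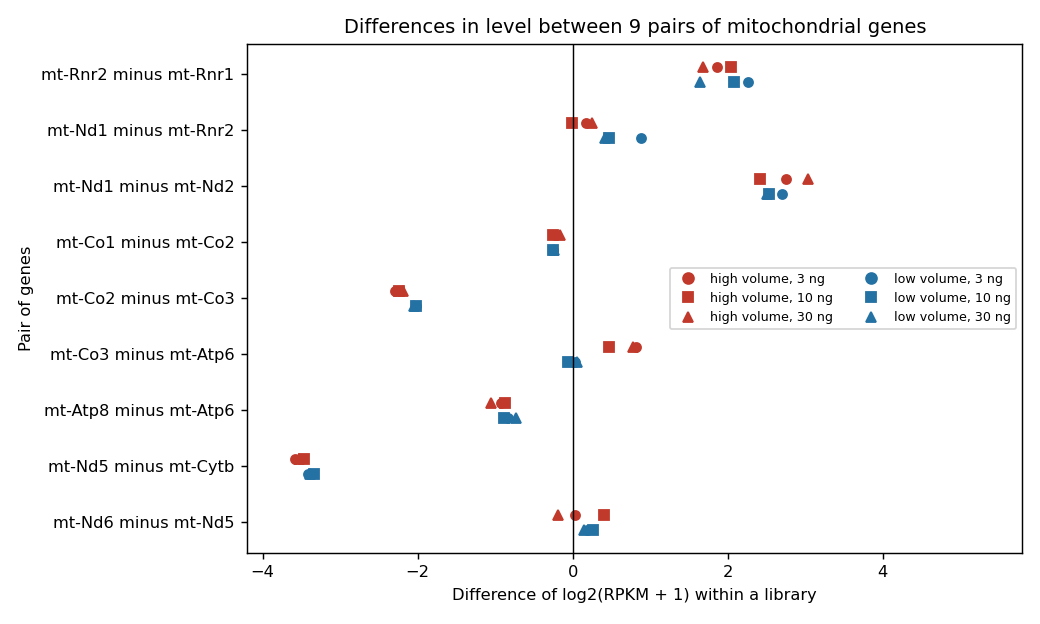
Difference of log2(RPKM + 1) between the genes of 9 of the 10 pairs, with 1 point per library (red, high volume; blue, low volume; symbols give the input). The pair mt-Nd4l and mt-Nd4, at -10.87, lies beyond the axis and is left out. For mt-Co3 minus mt-Atp6 the high-volume points lie between 0.46 and 0.81 and the low-volume points near 0.

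The study's first comparison asks what the reaction volume, with its kit, does to the profile. No mitochondrial gene passed the test. Of the 37 genes, 27 had enough tags to be tested (12 protein, 2 rRNA and 13 tRNA genes), and edgeR's quasi-likelihood test over all genes called 0 of the 27 at an adjusted p below 0.05. The background was 0.00620% of 16120 genes tested, a single gene. At an unadjusted p below 0.05 edgeR gave 6 of the 27, all higher in high volume, where 3.36% of all genes were: mt-Rnr1, mt-Rnr2, mt-Co1, mt-Co2, mt-Co3 and mt-Cytb. None of the 27 was lower at that p, where 3.32% of all genes were. DESeq2 called 1 of the 27, mt-Co3, against 1.13% of all genes. By volume it gave an adjusted p to only 15 of the 27 members, with 1 of the 13 tRNA genes. Of all 16120 genes, 6432 had one.

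Complex IV and cytochrome b genes had the smallest errors. mt-Co3 was 0.54 ± 0.11 higher on the log2 scale in high volume (SE; edgeR adjusted p = 0.552, DESeq2 adjusted p = 0.00504), and higher in 3 of 3 inputs (0.74, 0.65 and 0.20 at 3, 10 and 30 ng). mt-Co1 differed by 0.35 ± 0.094 (edgeR adjusted p = 0.644), mt-Cytb by 0.33 ± 0.11 (0.690) and mt-Co2 by 0.32 ± 0.11 (0.690). In scaled counts the groups did not overlap for these 4 genes and mt-Tl1 (0.81 ± 0.35), 5 of 27 members, against 8.10% of all genes that were higher in this way. No member had all high-volume libraries below all low-volume ones, against 7.28% of all genes. For the rRNAs the difference was 0.72 ± 0.25 for mt-Rnr1 and 0.60 ± 0.25 for mt-Rnr2, with overlapping groups and values below 0 at 30 ng (-0.12 and -0.082). Without the high-volume 30 ng library the rRNA differences were 1.11 and 0.96, without the low-volume 3 ng library 0.36 and 0.32, and mt-Rnr2 stood at 0.31 without the high-volume 10 ng library.

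ATP synthase genes lay on the other side. mt-Atp6 differed by -0.12 ± 0.18 (SE; edgeR adjusted p = 0.878) and mt-Atp8 by -0.24 ± 0.22 (0.823). Complex I genes lay between 0.044 ± 0.30 for mt-Nd2 and 0.27 ± 0.16 for mt-Nd4. The mt-Nd4 value was 0.077 without the high-volume 10 ng library, 0.10 without the low-volume 3 ng library and 0.48 without the high-volume 30 ng library. Among the tRNA genes the difference ran from -0.52 ± 0.51 for mt-Tq to the value of mt-Tl1 above. The median over the 12 protein genes was 0.22 (10 of 12 above 0), over the 13 tRNA genes 0.078, over all 27 members 0.15 and over all genes 0.018. Without the high-volume 10 ng library the median of the protein genes was -0.00457, without the high-volume 30 ng library 0.446 and without the low-volume 3 ng library 0.0697.

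**Figure D5:**
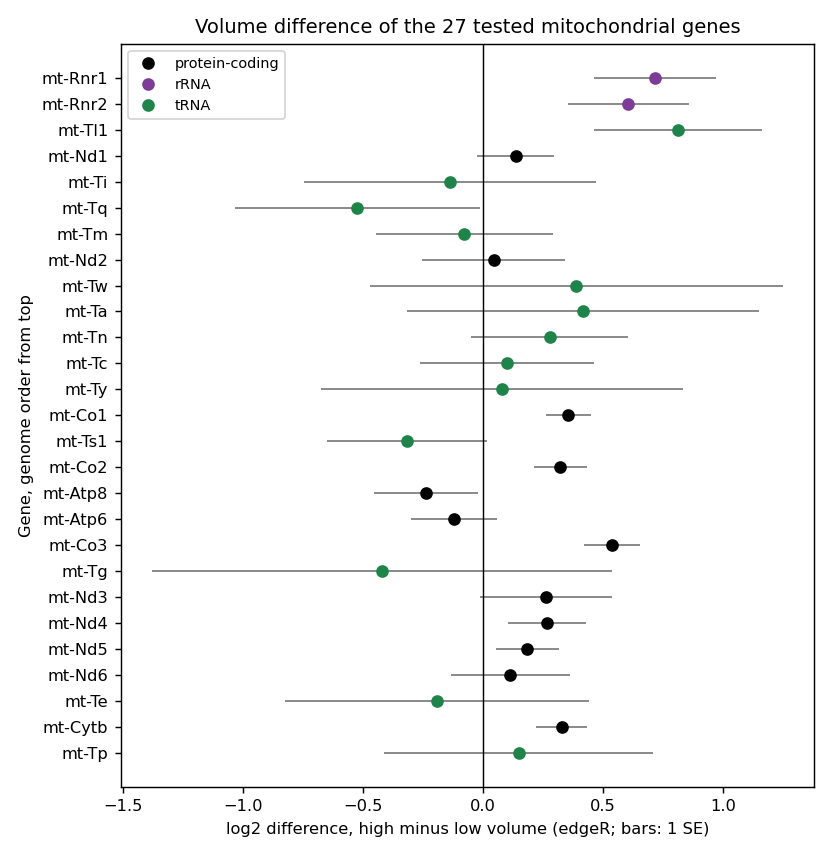
log2 difference between high and low volume for the 27 tested mitochondrial genes, in genome order from top to bottom, as fitted by edgeR over 6 libraries. Points are estimates and bars 1 SE. The estimates of mt-Co1, mt-Co2, mt-Co3 and mt-Cytb are between 0.32 and 0.54, and the bars of most tRNA genes cross 0.

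A single library moved many members at once. Over the 26 members with at least 10 tags in every library, the high-volume 10 ng library had the highest RPKM for 20. The lowest RPKM was in the high-volume 30 ng library for 12 members, in the low-volume 3 ng library for 11 and in the high-volume 3 ng library for 3. Comparing high with low volume at 1 input, 20 of the 27 tested members were higher in high volume at 3 ng, 25 at 10 ng and 7 at 30 ng. Over all tested genes with tags in both libraries the share higher in high volume was 50.7%, 51.2% and 50.6%. The median log2 difference over the members was 0.24, 0.46 and -0.32.

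Several tRNA genes were the furthest below in the high-volume 30 ng library. Against the low-volume 30 ng library, the log2 difference was -2.14 for mt-Te, the glutamate tRNA gene, -2.01 for mt-Tq, the glutamine one, and -1.75 for mt-Ti, the isoleucine one. At 10 ng the same genes stood at 0.41, -0.062 and 0.52. mt-Te had 69 tags in the high-volume 30 ng library and 397 in the low-volume one. Each of these values sets 1 library against 1 other, so it has no replicate check.

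When the high-volume 30 ng library was left out, edgeR called mt-Co3, at 0.71 with an adjusted p of 0.0170 (2 of all genes, 0.0122%). In the 10 and 30 ng libraries alone edgeR called mt-Co3 (0.43, adjusted p = 0.0211) and mt-Co1 (0.28, adjusted p = 0.0482), with 1.68% of all genes called in that fit. The members ranged from 17.1% G and C (mt-Td) to 44.9% (mt-Tm). With the input as a block and a correction for GC content, edgeR called 0 members and 0% of all genes. In that fit 12 of 27 members, 9 of them protein genes, were higher in high volume at an unadjusted p below 0.05, against 2.83% of all genes, and the median of the protein genes was 0.36.

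The amount of input RNA is the study's other factor. No member passed edgeR's test of a change per doubling of input, with a background of 0% of 16120 genes. At an unadjusted p below 0.05 edgeR gave 0 of 27 members, against 7.77% of all genes. DESeq2 called 0 members and 0.273% of all genes. Over all genes the median slope was 0.021 on the log2 scale per doubling, with 56.4% above 0. The median slope of the protein genes was 0.013 (11 of 12 above 0), and its sign turned with single libraries. It was -0.058 without the low-volume 3 ng library (0 of 12 above 0), -0.011 without the high-volume 3 ng library, -0.00904 without the low-volume 30 ng library and 0.109 without the high-volume 30 ng library (12 of 12). In the 10 and 30 ng libraries alone it was -0.21 (0 of 12). The share of all genes above 0 was 53.0% without the low-volume 3 ng library and 56.9% without the high-volume 30 ng library. That share was 52.5% in the 10 and 30 ng libraries alone. The larger slope of the rRNAs was 0.18 for mt-Rnr1 (edgeR adjusted p = 0.631), and it was 0.025 without the low-volume 3 ng library, 0.078 without the low-volume 30 ng library and 0.36 without the high-volume 30 ng library.

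Whether the volume difference itself changed with input was tested by an interaction term. edgeR called 0 members and 0% of all genes, and at an unadjusted p below 0.05 it gave 1 of 27 members, mt-Rnr1, against 8.36% of all genes. For mt-Rnr1 the volume difference changed by -0.43 ± 0.11 per doubling of input (SE; edgeR unadjusted p = 0.00673, adjusted p = 0.583). Estimates above 0 were found for 3 of 27 members and for 0 of 12 protein genes, whose median was -0.14, against 49.8% of all genes. Members cut from shared precursors are not independent observations, and each input holds 1 library per volume. At 30 ng 7 of the 27 members were higher in high volume, against 20 at 3 ng and 25 at 10 ng.

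Most mitochondrial proteins, and all proteins that make and process mitochondrial RNA, are coded in the nucleus. Their genes gave a scale for the levels above. The 23 listed nuclear subunits of the same respiratory complexes had a median RPKM of 412. Their highest were Cox4i1 (complex IV) at 2019 ± 212, Atp5o (ATP synthase) at 1415 ± 117 and Cox6a1 (complex IV) at 1199 ± 128 (SD, n = 6). The 78 mitochondrial ribosomal protein genes had a median of 47.7, led by Mrpl20 (465), Mrpl33 (356) and Mrpl42 (318). Genes of mitochondrial transcription and RNA processing, 40 of 41 listed found by symbol, had a median of 7.02. Their highest were Hsd17b10, a subunit of mitochondrial RNase P (209), Rexo2, an exonuclease for short RNAs (74.4), and Slirp, which binds mitochondrial mRNAs (69.2).

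The 17 genes of mitochondrial aminoacyl-tRNA synthetases, which load amino acids on the tRNAs, had a median RPKM of 3.12. Lars2, for leucine, stood far above the others at 4113 ± 548 (SD, n = 6), followed by Tars2 (14.4) and Sars2 (13.6). Whether the tags counted on Lars2 come from its mRNA was not tested. An alternative total given below leaves it out together with Gm42418. None of the genes of these 4 lists passed edgeR's test for volume or for input. At an unadjusted p below 0.05 edgeR gave, by volume, 3 of 40 genes of transcription and RNA processing and 2 of 17 synthetases. It also gave 6 of 23 nuclear subunits and 5 of 78 ribosomal proteins. The share over all genes was 6.67%. By input the counts were 1, 2, 1 and 3, against 7.77% of all genes. DESeq2 called 2 genes of the lists by volume, Dhx30 and Mrps6, against 1.13% of all genes, and 0 by input, against 0.273%. These names were chosen after their values were seen. The median volume differences on the log2 scale were -0.11, 0.071, 0.061 and 0.021, in that order.

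The largest volume differences within these lists belonged mostly to genes of low level. Mterf1b, of the mitochondrial transcription termination factor family, had -1.31 at a mean RPKM of 0.237, and Elac2, which cuts the 3′ end of tRNAs from the precursor, had 1.00 at 4.48. For Elac2 the RPKM at 3 ng was 9.255 in high and 1.668 in low volume. It was 3.508 against 3.319 at 10 ng and 4.539 against 4.593 at 30 ng. Iars2 and Ears2, synthetases for isoleucine and glutamate, had 0.60 and 0.57. Mrps30 and Mrps24 of the ribosomal protein list had 0.73 and 0.62. Cyc1 and Uqcrc1, nuclear subunits of complex III, had -0.35 and -0.27, on the other side of 0 from mt-Cytb (0.33). Their RPKM means were 199 and 406. None of these differences passed the test.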

How the data were processed

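The 6 libraries were sequenced on an Illumina HiSeq platform, per the labels. CASAVA 1.8, TopHat2 2.0.8, Bowtie2 2.1.0 and the GRCm38.p1 build are named in the submitters' processing notes. How tags were counted, on which annotation release and with what rule for reads with several matches is not given here or in the labels. Each deposited file holds a whole-number tag count and the authors' RPKM for each transcript, exon and intron. The authors' RPKM is, per the file headers, scaled by feature length and library total. Of 93615 transcripts, 89664 were matched to GENCODE M21 (GRCm38) and 3951 were not used. Each gene was represented by the transcript with the most tags. The 37 mitochondrial genes had identical coordinates in that annotation. Members and lists were chosen with earlier results of these data known.

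Gene tests on the deposited counts used edgeR 4.0.16 under R 4.3.3 (quasi-likelihood, TMM factors of 0.944 to 1.06, filterByExpr), with volume and centred log2 input as terms and 3 residual degrees of freedom, 2 with the interaction. The SE given for edgeR was derived from its F statistic, as the absolute log2 difference divided by the square root of F. The Benjamini-Hochberg adjustment ran over all genes tested, and 0.05 was the threshold. DESeq2 1.42.0, other scalings, no filter, the input as a block, the block with a GC correction, the 10 and 30 ng libraries alone and each library left out were alternatives. Deviations from the group means of the libraries with the same input correlated at 0.132 (3 ng), 0.111 (10 ng) and 0.127 (30 ng). These values are low and were not tested. The exact volume tests of shares and of gene pairs above did not use the shared input. Paired by input, the smallest p of an exact sign-flip test is 0.25. Pairs of genes used log2(RPKM + 1), with a pseudocount of 1, and a fold on that scale understates the change of low values. Nuclear copies were found by aligning GENCODE M21 transcripts to mitochondrial genes. From each listed gene set the 3 highest levels and the 2 largest volume differences are named. Tags carry no molecular identifiers, so depth (14160397 to 31524210 tags on the chosen transcripts) bounds counting error only. Protein sequences were not used here.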

Additional observations from a re-analysis of the deposited data

How the results depend on the processing

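Of 27 tested members, 11 kept the sign of their volume difference in the 13 alternatives and 16 did not in at least 1. The number of genes past the threshold by volume, 1 in the fit reported, was 182 with DESeq2, 278 in the 10 and 30 ng libraries alone (1 residual degree of freedom), 11 without a filter, 0 with the input as replicate block, 0 with the block and a GC correction, and 0 to 2 when each library was left out. Members past it were 1, 2, 0, 0 and 0 in the first 5 of these, and 0 to 1 with each library left out. The block changed no other call. By input, DESeq2 called 44 genes and the fit without a filter 2. The cause of these shifts was not tested.

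The sign of the volume difference reversed, with no adjusted p under 0.05, in the 10 and 30 ng libraries for mt-Tm (0.046), mt-Nd2 (-0.14), mt-Tw (-0.24) and mt-Ty (-0.39). It reversed under the block for mt-Nd2 (-0.037), and under the block with GC correction for mt-Atp6 (0.016). With scaling to total counts the median over all genes was -0.10, against 0.018, and the sign reversed for mt-Nd2 (-0.072), mt-Tc (-0.015), mt-Ty (-0.038) and mt-Nd6 (-0.00335), all of which lie above that shifted median.

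With each library left out, values ranged from -0.35 to 0.11 for mt-Atp6, -0.52 to 0.058 for mt-Atp8, -0.065 to 0.35 for mt-Nd1, -0.38 to 0.42 for mt-Nd2, -0.15 to 0.58 for mt-Nd3 and -0.22 to 0.40 for mt-Nd6. For tRNA genes they ranged from -0.00966 to 0.91 for mt-Ta, -0.36 to 0.35 for mt-Tc, -1.11 to 0.48 for mt-Te, -0.83 to 0.46 for mt-Ti, -0.18 to 0.036 for mt-Tm, -0.095 to 0.51 for mt-Tp, -1.11 to 0.079 for mt-Tq, -0.85 to 0.026 for mt-Ts1, -0.24 to 1.03 for mt-Tw and -0.45 to 0.68 for mt-Ty. Without a change of sign, values ranged from 0.36 to 1.11 for mt-Rnr1, 0.31 to 0.96 for mt-Rnr2, 0.60 to 1.01 for mt-Tl1, 0.11 to 0.47 for mt-Tn, 0.24 to 0.48 for mt-Co1, 0.19 to 0.47 for mt-Co2, 0.39 to 0.71 for mt-Co3, 0.19 to 0.47 for mt-Cytb, 0.077 to 0.48 for mt-Nd4, 0.043 to 0.34 for mt-Nd5 and -1.31 to -0.019 for mt-Tg. The input slope of mt-Co3 ranged from -0.057 to 0.087. The median of the protein genes by volume ranged from -0.00457 to 0.45, and the share of tags from -0.00193 to 1.81 points. The share difference was 1.72 points with Gm42418 and Lars2 taken out of the total. It was 0.571 points with all transcript rows as the total, 33122348 to 76969002 tags per library. Points taken on different totals are not on a common scale, so their sizes cannot be compared directly. With 5 libraries, 0 to 0 of the pairs passed, since the smallest p is then 0.0625.

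Genes with few tags set the limit of precision. The 10 members that the filter left out had at most 12 tags in any library. In the fit without a filter, which included them, 0 members passed by volume.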
